A study of Mus musculus with 18 samples.

Results

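The genes described here are 42 that cells raise when they copy and divide their DNA, from the entry into S phase to G2 and mitosis, taken as a fixed list of symbols. All 42 were found among the 23951 genes of the deposited table, none was listed at 0 in any library, and 41 reached 1 FPKM (fragments per kilobase of transcript, scaled to the mapped fragments of the library) in at least 3 of the 18 libraries, which was the condition for a test. E2f2, the exception, is given by its values. The libraries hold poly(A) RNA from cells sorted out of fresh mouse pancreas and pancreatic tumors. Normal pancreatic fibroblasts (labelled mNPF, here NPF, n = 3) came from mice with the wild-type K-Ras+/+ locus. Cancer-associated fibroblasts (Saa3_WT_CAF, here WT_CAF, n = 5) and tumor cells (Saa3_WT_Tumor, here WT_tumor, n = 4) came from mice with K-Ras+/LSLG12Vgeo, an oncogenic allele that Cre switches on, and Trp53lox/lox, from which Cre deletes p53. The groups KO_CAF (Saa3_KO_CAF, n = 3) and KO_tumor (Saa3_KO_Tumor, n = 3) came from mice with both of these alleles and Saa3-/- in addition. Saa3 encodes an acute-phase serum amyloid protein. All 5 groups, NPF included, carry Elas-tTA/tetO-Cre, in which tTA made from an elastase promoter (active in acinar cells) switches on Cre, together with a Rosa26+/EYFP reporter. The sources used here do not give ages, sort gates or the animal behind each library, replicate numbers follow the order of deposition, and nothing pairs fibroblasts with tumor cells. The p-values therefore measure the spread between these libraries, which may be technical.

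Cells enter S phase when cyclin E with its kinase releases E2F factors from the retinoblastoma protein. E2F targets include the MCM helicase, its loaders Cdc6 and Cdt1, and the enzymes that make deoxynucleotides. Genes of G2 and mitosis are switched on later, when B-Myb and FoxM1 join the MuvB complex at promoters that hold a cell cycle homology region (CHR) and CCAAT boxes. The same MuvB complex, joined to other partners, keeps these genes low in resting cells, and in pancreatic adenocarcinoma the sum of these transcripts is widely read as a measure of the dividing share of cells. In bulk RNA of sorted cells, fewer dividing cells and less of each transcript per dividing cell cannot be told apart.

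Several libraries must be known before the values are read. The library labelled WT_CAF 1 held the fibroblast markers Pdgfra, Pdgfrb, Dcn, Lum, Thy1 and Col6a1 at a summed 173 FPKM, against 2147 to 11661 in the other 10 fibroblast libraries and 10.3 to 157 in the tumor cells, and it held 7 epithelial markers at a summed 626 FPKM, against 2.41 to 307 and 2791 to 6538. That epithelial sum was mostly the keratins Krt8 (252 FPKM), Krt18 (245) and Krt19 (119), while Epcam (0.220), Cldn4 (0.234) and Cldn7 (0.211) lay within the range of the other fibroblasts (0.0648 to 12.1, 0 to 9.49 and 0 to 10.6). Cdh1, the remaining marker, was at 10.1 FPKM, above the other fibroblasts (0.0647 to 4.78) and below the tumor cells. Results on fibroblasts are therefore given with and without WT_CAF 1. The library labelled WT_tumor 4 also stood apart: it held Epcam at 2.60, Cldn4 at 1.66 and Cldn7 at 5.95 FPKM, within the fibroblast range, against 129 to 586, 14.4 to 536 and 104 to 248 in the other 6 tumor cell libraries, with the keratins Krt8 (1188) and Krt18 (1109) at tumor cell levels. Its Cdh1 (46.5) and Krt19 (438) lay above every fibroblast library and below the other tumor cells (86.8 to 228 and 485 to 1132). Acinar markers (Cpa1, Cela1, Ctrb1, Pnlip, Cel and Ptf1a) summed to 764, 4154 and 28836 FPKM in NPF, to 7134, 5008, 1136 and 11.4 in WT_tumor and to 7.73, 4751 and 14119 in KO_tumor. Macrophage markers summed to 19.1 to 262 FPKM, neutrophil markers to 522 in KO_CAF 1, 516 in KO_tumor 1 and at most 84.1 elsewhere, T cell markers to at most 9.43 and the leukocyte gene Ptprc to at most 1.45. Saa3 stood at up to 1.85 FPKM in the 6 knockout libraries and at 2.75 to 4278 in the other 12. In WT_tumor it was at 4.10, 2.75, 106 and 3.13 FPKM, against 0.346, 0 and 0 in KO_tumor. In WT_CAF 1 it was at 7.24 FPKM, against 892, 4278, 1182 and 2270 in WT_CAF 2 to 5. The descriptions also give an index for some libraries, and its length was taken here as the library format. No index was given for NPF 1 to 3 and WT_CAF 1 and 2. These were treated as 1 format, which the labels do not state. The index had 16 bases for WT_CAF 4 and 5, KO_CAF 3, WT_tumor 1 and KO_tumor 2, and 6 bases for the other 8 libraries. The number of fragments behind the values is unknown, and FPKM summed to 396646 to 919859 per library.

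The promoters of these genes show both classes of site. RefSeq promoter windows on build GRCm38.p6, each from 250 bases before to 50 bases after a start of transcription, were found by symbol for 34 of the 42 genes (37 windows). They were searched on both strands for the CHR (TTTGAA or TTCGAA), the CCAAT box (CCAAT), and the E2F site (TTTCCCGC, TTTCGCGC, TTTGCCGC or TTTGGCGC). The CHR was in 68% of the 25 windows of the mitotic, cyclin and transcription factor genes, in 16.7% of the 12 windows of the replication and nucleotide genes, and in 19.2% of all 32851 windows. The E2F site was in 50% of the replication and nucleotide windows, in 8% of the others and in 2.26% of all. The CCAAT box was in 75% and 80% of these classes against 37.4% of all, and all 19 windows with a CHR also held it. A match of this kind is a description of the letters, not of a bound factor. 4 of these promoters are printed below as examples of these sites, of genes that were called in tumor cells (Kif23, Cdc20 and Mki67) and of Mcm6, which had the largest difference of the list between WT_CAF and NPF without being called: Kif23 (chr9:61946800-61946979), Cdc20 (chr4:118437353-118437523), Mki67 (chr7:135716380-135716559) and Mcm6 (chr1:128359706-128359885), all on the minus strand. Each stretch is up to 180 bases long, runs 5′ to 3′ toward the start of transcription, overlaps no exon of GENCODE M21 (the Cdc20 stretch was shortened by 9 bases for this), and has the CHR, CCAAT box and E2F matches in capitals, with ATTGG as the reverse complement of the CCAAT box.
Kif23: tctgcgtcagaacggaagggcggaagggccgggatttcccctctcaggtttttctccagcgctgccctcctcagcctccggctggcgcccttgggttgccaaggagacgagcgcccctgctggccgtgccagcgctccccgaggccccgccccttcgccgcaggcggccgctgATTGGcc
Cdc20: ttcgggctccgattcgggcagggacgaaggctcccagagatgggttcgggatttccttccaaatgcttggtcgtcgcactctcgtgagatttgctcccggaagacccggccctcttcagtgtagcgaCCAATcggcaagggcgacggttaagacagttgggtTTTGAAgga
Mki67: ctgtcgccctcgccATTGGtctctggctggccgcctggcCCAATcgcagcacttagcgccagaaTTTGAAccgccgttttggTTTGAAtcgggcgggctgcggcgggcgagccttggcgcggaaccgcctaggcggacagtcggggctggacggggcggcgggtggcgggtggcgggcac
Mcm6: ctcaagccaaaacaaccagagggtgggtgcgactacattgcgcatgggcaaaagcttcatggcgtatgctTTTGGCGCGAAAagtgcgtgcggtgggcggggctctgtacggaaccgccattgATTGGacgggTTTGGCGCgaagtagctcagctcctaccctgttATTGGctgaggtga
Cdc20 and Mki67 carry CHR matches together with CCAAT boxes. Mcm6 carries CCAAT boxes and E2F matches, of which a pair overlaps on opposite strands, and no CHR. Kif23 has a CCAAT box just before the start, and its CHR lies after the start, outside the stretch shown.

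Over the whole list, both tumor cell groups had a higher mean level than the fibroblast groups, and libraries of the same group differed widely. The mean log2(FPKM + 1) of the 42 genes was 2.90, 2.46 and 1.97 in NPF, 3.40, 2.71, 2.74, 2.05 and 2.54 in WT_CAF, 2.82, 2.5 and 2.86 in KO_CAF, 3.92, 2.54, 2.77 and 3.19 in WT_tumor and 3.54, 3.98 and 2.88 in KO_tumor (replicates in order). WT_tumor 1 and KO_tumor 2, the only tumor cell libraries with a 16-base index, were the highest: they were among the top 3 libraries for 35 and 33 of the 42 genes. NPF 3 was the lowest library for 21 genes and WT_CAF 4 for 8. Without WT_CAF 1 the fibroblast libraries spanned 1.97 to 2.90 and the tumor cells 2.54 to 3.98, so the classes overlapped. The 5 tumor cell libraries with a 6-base index spanned 2.54 to 3.54. On the per-length scale of FPKM, Pcna was the most abundant of the list (median over 18 libraries 65.2 FPKM), followed by Ube2c (25.3) and Rrm1 (18.8), and Ccne2 (0.643) and E2f2 (0.288) were the least abundant.

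**Figure D1:**
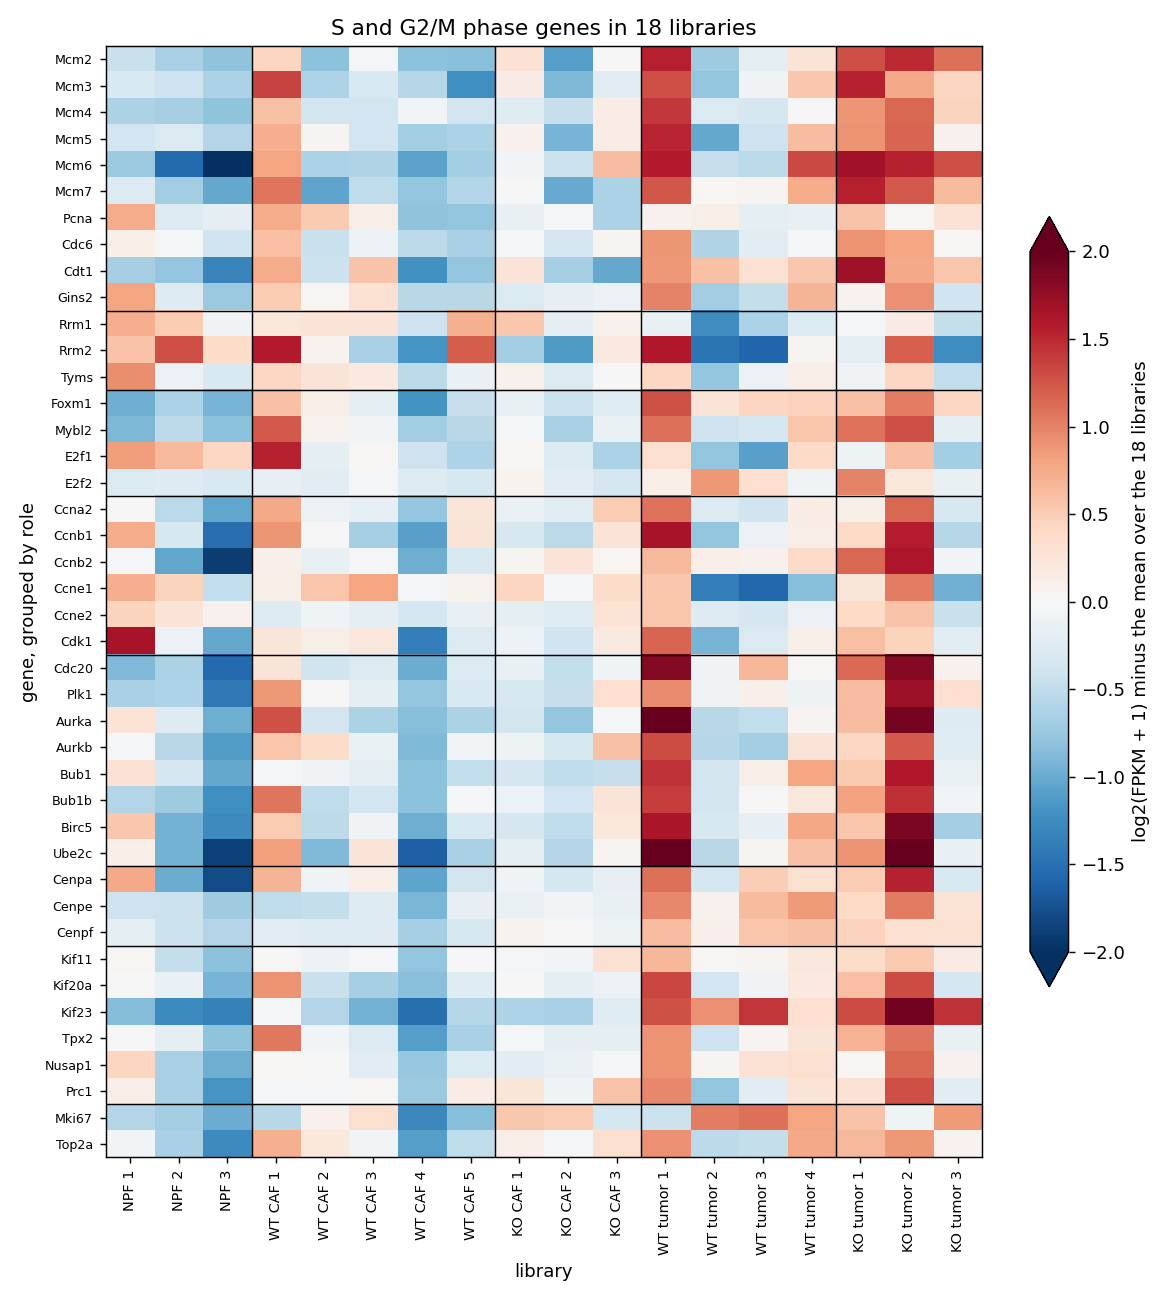
Heat map of log2(FPKM + 1) for the 42 genes (rows, grouped by role) in the 18 libraries (columns, grouped by sample group), each gene centred on its mean over the libraries, with colors held at 2 above or below. WT tumor 1 and KO tumor 2 are high for most genes, NPF 3 and WT CAF 4 are low, and Mki67 goes against the rest in WT tumor 1 and KO tumor 2.

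The replication licensing genes encode the MCM2-7 helicase (Mcm2 to Mcm7), its loaders Cdc6 and Cdt1, the GINS subunit Gins2, and Pcna, the sliding clamp of the polymerases. Mcm6 was at 6.65, 3.35 and 2.12 FPKM in NPF, 21.2, 7.23, 7.4, 5.12 and 6.99 in WT_CAF and 11.3, 8.48 and 18.6 in KO_CAF. It was at 37.6, 8.26, 7.82 and 30.9 in WT_tumor and 39.9, 36.4 and 30.2 in KO_tumor. All 3 KO_tumor libraries were above every fibroblast library, whereas WT_tumor 2 and 3 lay within the fibroblast range. Mcm7 was at 12, 8.76 and 6.77 FPKM in NPF, 32.2, 6.6, 10.1, 8.12 and 9.51 in WT_CAF and 14.6, 6.86 and 9.2 in KO_CAF. It was at 36.3, 15.2, 15.4 and 25.5 in WT_tumor and 45.5, 36 and 23.4 in KO_tumor. Every tumor cell library exceeded every fibroblast library other than WT_CAF 1. The Mcm7 exons overlap those of Ap4m1 and Cops6 on the opposite strand and hold the microRNAs Mir25 and Mir93, and the sources used here do not say whether the counting used strand.

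Mcm2 was at 5.86, 4.98 and 4.38 FPKM in NPF, 11.7, 4.32, 8.13, 4.28 and 4.27 in WT_CAF and 10.4, 3.34 and 8.3 in KO_CAF. It was at 26.6, 4.75, 7.19 and 10.3 in WT_tumor and 21.8, 25.5 and 19 in KO_tumor, and KO_tumor lay wholly above KO_CAF while WT_tumor overlapped WT_CAF. Mcm4 behaved alike in the knockout groups, with 10.1, 8.51 and 13.5 FPKM in KO_CAF against 23.2, 28.2 and 17 in KO_tumor. In the other groups it was at 7.45, 7.33 and 6.5 (NPF), 18.6, 9.15, 9.09, 11.6 and 9.09 (WT_CAF) and 34.1, 9.75, 9.4 and 12.1 (WT_tumor). Mcm5 was at 3.55, 3.82 and 2.95 FPKM in NPF, 8.82, 5.11, 3.54, 2.68 and 2.8 in WT_CAF, 5.25, 2.11 and 5.56 in KO_CAF, 16.1, 1.89, 3.41 and 8.08 in WT_tumor and 10.1, 12.2 and 5.3 in KO_tumor. WT_tumor 2 held the lowest Mcm5 value of all 18 libraries and WT_tumor 1 the highest. Mcm3 ranged from 2.80 FPKM (WT_CAF 5) to 24.9 (KO_tumor 1).

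Cdt1, which loads the helicase with Cdc6, was at 3.55, 3.22 and 1.87 FPKM in NPF, 11, 4.34, 9.7, 2.09 and 3.17 in WT_CAF and 7.54, 3.51 and 2.53 in KO_CAF. It was at 12.2, 9.79, 7.91 and 9.44 in WT_tumor and 22.2, 11.1 and 9.57 in KO_tumor, above every KO_CAF library. Cdc6 was low throughout, at 1.06, 0.865 and 0.436 FPKM in NPF, 1.87, 0.402, 0.747, 0.325 and 0.209 in WT_CAF, 0.877, 0.501 and 0.97 in KO_CAF, 2.5, 0.257, 0.652 and 0.879 in WT_tumor and 2.54, 2.29 and 0.944 in KO_tumor, and WT_tumor 1, KO_tumor 1 and KO_tumor 2 exceeded all fibroblasts while the other 4 tumor cell libraries lay within their range. Pcna, at 110.5, 53.6 and 57.5 FPKM in NPF, 110.3, 94.3, 70.7, 36.8 and 37.4 in WT_CAF, 58.8, 63.9 and 41.8 in KO_CAF, 69.5, 70.7, 56.7 and 58.9 in WT_tumor and 97.7, 66.5 and 79.8 in KO_tumor, was highest in NPF 1 and WT_CAF 1 and did not separate tumor cells from fibroblasts. Gins2 ranged from 6.29 FPKM (NPF 3) to 23.2 (WT_tumor 1).

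The nucleotide genes ran differently from the helicase. Rrm2, the regulated subunit of ribonucleotide reductase, was at 20.8, 35 and 18 FPKM in NPF, 43.2, 14.5, 8.34, 5.52 and 32.9 in WT_CAF and 8.16, 5.73 and 15.8 in KO_CAF. It was at 43.5, 4.35, 3.9 and 14.3 in WT_tumor and 11.9, 32.7 and 5.24 in KO_tumor. The library with a 16-base index was the highest of its group in KO_CAF, WT_tumor and KO_tumor, whereas WT_CAF 4, of the same format, was the lowest of WT_CAF. The lowest 2 of all 18 were WT_tumor 3 and 2. Rrm1, its large subunit, was at 31, 26.6 and 17.6 FPKM in NPF, 21.7, 22.3, 22.2, 13.7 and 30.9 in WT_CAF, 27.2, 16.2 and 19.6 in KO_CAF, 16.6, 7.27, 11.5 and 15.2 in WT_tumor and 17.9, 20.8 and 12.9 in KO_tumor. It was among the few genes of the list with lower values in tumor cells than in fibroblasts. Tyms, thymidylate synthase, was at 13.1, 5.85 and 4.96 FPKM in NPF, 8.82, 7.81, 7.43, 4.07 and 5.75 in WT_CAF, 6.87, 5.15 and 6.34 in KO_CAF, 8.86, 3.33, 5.84 and 7.09 in WT_tumor and 6.06, 8.85 and 4.24 in KO_tumor, with all groups overlapping.

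Among the transcription factors, Foxm1, which drives G2 and M genes, was at 1.92, 2.72 and 2.02 FPKM in NPF, 7.59, 5.29, 4.07, 1.52 and 3.19 in WT_CAF and 4.17, 3.25 and 3.83 in KO_CAF. It was at 12.9, 5.89, 6.71 and 6.91 in WT_tumor and 7.63, 10.7 and 6.66 in KO_tumor. Its lowest tumor cell value exceeded every fibroblast library but WT_CAF 1. Mybl2, the gene of B-Myb, was at 0.349, 0.759 and 0.425 FPKM in NPF, 4.86, 1.64, 1.41, 0.546 and 0.72 in WT_CAF, 1.44, 0.605 and 1.3 in KO_CAF, 4.42, 0.89, 0.966 and 2.71 in WT_tumor and 4.36, 5.13 and 1.21 in KO_tumor, and was lower in all 3 NPF libraries than in every other library but WT_CAF 4, WT_CAF 5 and KO_CAF 2. E2f1, the activating factor of S phase entry, had another order, with 11.1, 9.68 and 8.09 FPKM in NPF, 18.9, 4.98, 5.89, 4.13 and 3.43 in WT_CAF and 5.9, 4.64 and 3.38 in KO_CAF. It was at 7.54, 2.96, 2.2 and 7.85 in WT_tumor and 5.33, 9.23 and 3.26 in KO_tumor, so that NPF exceeded every WT_CAF library but WT_CAF 1. E2f2, too low to be tested, was at 0.168, 0.200 and 0.154 in NPF, 0.282, 0.242, 0.404, 0.199 and 0.147 in WT_CAF, 0.502, 0.223 and 0.135 in KO_CAF, 0.565, 1.62, 0.806 and 0.347 in WT_tumor and 1.85, 0.683 and 0.294 in KO_tumor.

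The cyclins and Cdk1 set the phase. Ccne1, cyclin E1 of the entry into S phase, was at 9.32, 7.52 and 3.42 FPKM in NPF, 5.77, 8.13, 9.77, 5.09 and 5.57 in WT_CAF and 7.36, 5.13 and 7.05 in KO_CAF. It was at 8.03, 1.4, 1.11 and 2.47 in WT_tumor and 6.34, 11.7 and 2.21 in KO_tumor. WT_tumor 2, 3 and 4 and KO_tumor 3 were below every fibroblast library, and KO_tumor 2 was above them all. Ccne2, cyclin E2, ranged from 0.329 FPKM (KO_tumor 3) to 1.68 (KO_tumor 2). Ccnb1, cyclin B1 of mitotic entry, was at 18.6, 8.37 and 3.09 FPKM in NPF, 20.5, 10.6, 6.37, 4.53 and 13 in WT_CAF, 8.4, 7.06 and 13 in KO_CAF, 35.6, 5.83, 9.82 and 11.8 in WT_tumor and 14.5, 33.6 and 6.85 in KO_tumor. Its kinase partner Cdk1 was at 34.5, 9.51 and 4.58 FPKM in NPF, 12.4, 11.3, 12.4, 3.41 and 8.39 in WT_CAF, 9.62, 7.61 and 11.8 in KO_CAF, 24.4, 4.95, 8.34 and 11.3 in WT_tumor and 16.2, 14.4 and 8.78 in KO_tumor. The highest Cdk1 value was that of NPF 1, and the groups overlapped for both genes. Ccna2 (cyclin A2) and Ccnb2 (cyclin B2) ranged from 4.25 to 23 and from 2.29 to 36.6 FPKM, both lowest in NPF 3 and highest in KO_tumor 2.

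Mitotic kinases, checkpoint proteins and the anaphase promoting complex followed. Cdc20, the activator of that complex, was at 6.33, 7.76 and 3.6 FPKM in NPF, 15.1, 9.27, 10.3, 5.78 and 10.2 in WT_CAF and 11.2, 8.65 and 11.8 in KO_CAF. It was at 47.2, 11.9, 20.4 and 12.7 in WT_tumor and 28.8, 47.1 and 13.3 in KO_tumor, with WT_tumor 1 and KO_tumor 2 far above the rest and every tumor cell library above every fibroblast library but WT_CAF 1. The Cdc20 exons overlap Elovl1 on the opposite strand. Plk1, the polo-like kinase of mitotic entry, was at 3.66, 3.74 and 1.71 FPKM in NPF, 12.3, 6.33, 5.35, 3.22 and 4.88 in WT_CAF and 4.82, 4.28 and 8.18 in KO_CAF. It was at 13, 5.97, 6.79 and 5.76 in WT_tumor and 10.2, 22.8 and 8.18 in KO_tumor. NPF 3 was the lowest library and KO_tumor 2 the highest for Plk1, and KO_CAF 3 equalled the lowest KO_tumor value to 3 digits. Ube2c, the ubiquitin-conjugating enzyme of the complex, was at 28.7, 13.2 and 6.42 FPKM in NPF, 46.9, 13.8, 31.4, 7.78 and 16.3 in WT_CAF and 22.7, 17.1 and 27.3 in KO_CAF. It was at 122, 17.6, 27.2 and 40 in WT_tumor and 49.9, 151 and 23.5 in KO_tumor, and its exons overlap Tnnc2 on the opposite strand.

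Aurkb, the kinase of the chromosomal passenger complex, was at 3.9, 2.39 and 1.29 FPKM in NPF, 6.29, 5.41, 3.54, 1.69 and 3.77 in WT_CAF, 3.65, 2.98 and 6.43 in KO_CAF, 11.3, 2.35, 2.1 and 4.92 in WT_tumor and 5.61, 10.6 and 3.18 in KO_tumor. Birc5 (survivin), its partner, was at 27.3, 9.06 and 7.05 FPKM in NPF, 26.6, 12.5, 17.4, 8.92 and 14.8 in WT_CAF, 14.4, 12.7 and 21.6 in KO_CAF, 59.3, 14.6, 16.4 and 32.1 in WT_tumor and 27.4, 70.5 and 11.1 in KO_tumor. Birc5 in WT_tumor 4 and KO_tumor 1 was also above every fibroblast library. For both genes the 2 tumor cell libraries with a 16-base index were the highest of all, while the range of the other tumor cell libraries overlapped that of the fibroblasts. The same held for Aurka, the spindle pole kinase, at 26.4 and 23.1 FPKM in those libraries against 3.34 to 8.82 in the other tumor cells and 2.25 to 14.4 in fibroblasts, where the highest was WT_CAF 1 (6.68 without it). It held too for the spindle checkpoint kinases Bub1 (7.53 and 8.56 FPKM, against 1.44 to 4.41 and 0.544 to 2.84) and Bub1b (12.1 and 12.8, against 2.85 to 7.76 and 1.14 to 9.49, the last being WT_CAF 1, with 4.99 next).

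Of the centromere, spindle and cytokinesis genes, Kif23, Cenpf and Cenpe did not overlap between tumor cells and fibroblasts, and the others did. Kif23, the kinesin of the central spindle that is needed for cytokinesis, was at 2.02, 1.28 and 1.15 FPKM in NPF, 4.35, 2.65, 1.85, 0.942 and 2.69 in WT_CAF and 2.58, 2.5 and 3.67 in KO_CAF. It was at 12.3, 9.31, 13.8 and 5.93 in WT_tumor and 12.6, 20 and 14 in KO_tumor, above every fibroblast library. Unlike most of the list, Kif23 was also high in WT_tumor 2, WT_tumor 3 and KO_tumor 3, where the mean of the list was low. Cenpf, a large kinetochore protein, was at 0.721, 0.441 and 0.295 FPKM in NPF, 0.671, 0.63, 0.623, 0.229 and 0.553 in WT_CAF and 1.05, 0.945 and 0.82 in KO_CAF. It was at 1.99, 1.1, 1.85 and 1.93 in WT_tumor and 1.67, 1.42 and 1.39 in KO_tumor, again with no overlap. Cenpe, the kinetochore kinesin, was at 0.982, 0.965 and 0.62 FPKM in NPF, 0.856, 0.907, 1.22, 0.405 and 1.35 in WT_CAF, 1.42, 1.55 and 1.39 in KO_CAF, 4.13, 1.81, 3.1 and 3.76 in WT_tumor and 2.48, 4.47 and 2.19 in KO_tumor, and did not overlap either. Kif23, Cenpe and Cenpf were the 3 of 41 tested genes for which all 7 tumor cell libraries exceeded all 11 fibroblast libraries, which 3.07% of all 13369 tested genes did. Cenpf reached 1 FPKM in 7 tumor cell libraries and 1 fibroblast library (KO_CAF 1), so it was tested through the tumor cells and had to differ in this direction, and nothing is read from the count. Without WT_CAF 1, Cdc20, Foxm1 and Mcm7 joined them (6 of 41, background 5.85%).

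Kif11, the motor that separates the spindle poles, was at 2.38, 1.41 and 0.888 FPKM in NPF, 2.34, 2.1, 2.24, 0.93 and 2.35 in WT_CAF, 2.24, 2.24 and 3.13 in KO_CAF, 4.32, 2.41, 2.47 and 2.88 in WT_tumor and 3.29, 3.8 and 2.74 in KO_tumor. KO_CAF 3 exceeded 4 of the 7 tumor cell values. Kif20a, Tpx2, Nusap1 and Prc1, which build or bundle spindle microtubules, and Cenpa, the centromeric histone, ranged from 2.49 to 15.9, 2.10 to 12.9, 1.45 to 9.63, 3.05 to 21.4 and 3.27 to 41.9 FPKM. Each was highest in WT_tumor 1 or KO_tumor 2. Top2a, the topoisomerase that untangles replicated DNA, was at 8.57, 5.33 and 3.11 FPKM in NPF, 15.1, 10.5, 8.5, 3.59 and 5.98 in WT_CAF, 9.82, 8.78 and 11.3 in KO_CAF, 17.7, 5.91, 6.08 and 15.8 in WT_tumor and 14.5, 17.1 and 9.42 in KO_tumor, and WT_tumor 2 and 3 lay within the fibroblast range.

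Mki67, the Ki-67 antigen that coats mitotic chromosomes, ran against the other genes in tumor cells. It was at 1.54, 1.37 and 0.906 FPKM in NPF, 1.59, 3.01, 3.74, 0.563 and 1.12 in WT_CAF and 4.5, 4.42 and 1.99 in KO_CAF. It was at 1.83, 6.72, 7.16 and 5.58 in WT_tumor and 4.63, 2.59 and 5.87 in KO_tumor. The lowest tumor cell values were those of WT_tumor 1 and KO_tumor 2, the libraries in which most of the list was highest, and the 5 tumor cell libraries with a 6-base index (4.63 to 7.16 FPKM) exceeded every fibroblast library.

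**Figure D2:**
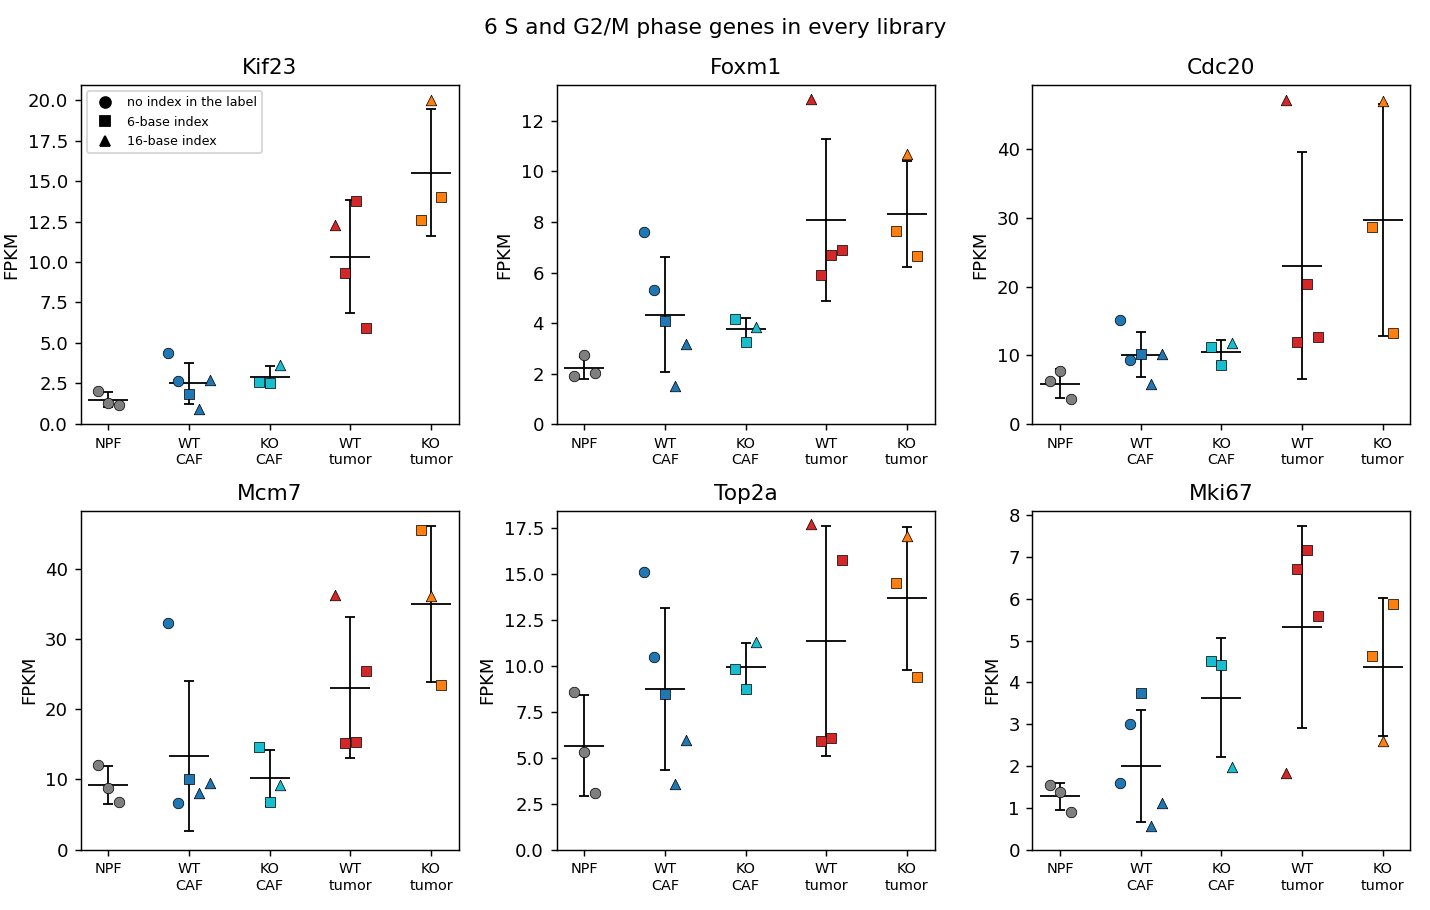
FPKM (y axis, from 0) of Kif23, Foxm1, Cdc20, Mcm7, Top2a and Mki67 by sample group (x axis), with 1 point per library, its shape giving the library format, and bars giving the mean and SD of the group. Kif23 is above every fibroblast library in all 7 tumor cell libraries (5.93 to 20 FPKM), Top2a overlaps, and among tumor cells Mki67 is lowest in the libraries with a 16-base index.

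WT_tumor was compared with WT_CAF by limma, on log2(FPKM + 1) with a trended empirical Bayes variance, all 18 libraries in 1 fit with library format as an additive term, two-sided, with Benjamini-Hochberg adjustment over 13369 genes. In this comparison Kif23 rose by 2.13 ± 0.30 (log2 difference ± standard error, adjusted p = 6.5e-04), Foxm1 by 1.31 ± 0.30 (0.0074), Cenpe by 1.16 ± 0.27 (0.0082), Cenpf by 0.86 ± 0.20 (0.0086), Cdc20 by 1.42 ± 0.43 (0.031) and Mki67 by 0.76 ± 0.23 (0.034). These 6 genes were 14.6% of the 41 tested, against 9.05% of all genes called higher. Cenpf and Cdc6 passed the filter through the tumor cells, and without them 5 of 39 genes were called (12.8%). None of the 41 was called lower, against 12.5% of all genes. The differences of 39 of the 41 were above 0 (median 0.86), against a median of 0.07 over all genes. The largest differences after Kif23 were those of Ube2c (1.61 ± 0.73, adjusted p = 0.13) and Mcm6 (1.5 ± 0.53, 0.058), and the lowest were those of Ccne1 (-0.81 ± 0.50, 0.26), Rrm1 (-0.67 ± 0.34, 0.17) and E2f1 (0.13 ± 0.47, 0.86). Without WT_CAF 1 the sizes were the same, since the format term takes them from WT_CAF 3 to 5, while the errors and adjusted p-values moved, and 12 genes were called (29.3%, background 11.6%), adding Aurka, Bub1b, Kif20a, Mcm6, Mcm7 and Plk1. Those 12 genes again include Cenpf, which passed the filter through the tumor cells. Without WT_tumor 4 the same 6 genes as with all libraries were called (background 9.41%).

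The size of this difference was not the same in both formats. Between the 3 WT_tumor libraries and the 1 WT_CAF library with a 6-base index, 23 of 41 genes were above 0 and the median was 0.15, while between WT_tumor 1 and the 2 WT_CAF libraries with a 16-base index 40 were above 0 and the median was 1.73. Kif23 differed by 1.84 and 2.31 within these formats, Cenpe by 0.78 and 1.5, and Mki67 by 0.65 and 0.64. Ube2c differed by -0.22 and 3.32, and Ccne1 by -2.05 and 0.51. Without WT_tumor 1, Cenpe, Kif23 and Mki67 were called (3 genes), and with no format term Cenpe, Cenpf and Kif23 (3 genes, 7.32% of the 41 against 9.27% of all genes). Kif23 and Cenpe were called in each of the 18 fits that left out 1 library (highest adjusted p 0.0057 and 0.047). Foxm1 and Cenpf lost the call without WT_tumor 1, Cdc20 without WT_tumor 1 or 3 or WT_CAF 4 or 5, and Mki67 without WT_CAF 3 or 4, KO_CAF 3, WT_tumor 2 or 3 or KO_tumor 2. The count was 12 without WT_CAF 2 and 10 without WT_CAF 3. Over all genes, 440 to 1551 were called higher in the 18 fits that left out 1 library.

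KO_tumor was compared with KO_CAF in the same fit. It shares no library with the comparison above, and it shares the format term and the estimate of the spread. Kif23 rose by 2.06 ± 0.31 (limma adjusted p = 5.6e-04), Mcm7 by 1.69 ± 0.48 (0.019), Cdt1 by 1.48 ± 0.44 (0.022), Mcm4 by 1.02 ± 0.31 (0.026), Mcm2 by 1.57 ± 0.49 (0.029), Foxm1 by 0.95 ± 0.30 (0.03), Plk1 by 1.04 ± 0.34 (0.034) and Cdc20 by 1.26 ± 0.44 (0.045). These were 8 of 41 genes (19.5%, background 13% of all genes called higher), 4 of them of the replication licensing group, and none was called lower (background 15.4%). The differences of 39 of the 41 were above 0 (median 0.68, against 0.05 over all genes). The lowest were those of Rrm1 (-0.27 ± 0.34, adjusted p = 0.59), Ccne1 (-0.15 ± 0.50, 0.85) and Tyms (0.01 ± 0.36, 0.98). Within the 6-base format 36 of 41 were above 0 (median 0.40, 2 against 2 libraries), and within the 16-base format 41 of 41 (median 1.19, 1 against 1). Mcm2 differed by 1.60 and 1.51 in these formats and Kif23 by 2.01 and 2.17.

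The count in the knockout groups rested on few libraries, and the count over all genes moved as well. Over the 18 fits that left out 1 library, 891 to 2057 of all genes were called higher. Kif23 alone was called without KO_CAF 2, without KO_CAF 3 or without KO_tumor 1 (1 gene each), and Kif23 and Mcm4 were called without KO_tumor 2 (2 genes). Beside these, Mcm2 lost its call without KO_tumor 3, Plk1 without KO_CAF 1, and Cdc20 without NPF 1, NPF 2, WT_CAF 5, KO_CAF 1 or WT_tumor 3. Without WT_CAF 1, which enters here only through the spread, 9 genes were called (22%, background 15.4%), Mcm6 being added. The same 9 were called without WT_tumor 4 (background 13.2%). With no format term 4 genes were called (Cdt1, Kif23, Mcm2 and Mcm7), 9.76% of the 41 against 9.72% of all genes. The calls of Cenpe, Cenpf and Mki67 in the comparison of groups with intact Saa3, and those of the MCM genes in the knockout groups, are not shown to differ: for no gene was the interaction of knockout and cell type called, as given below.

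**Figure D3:**
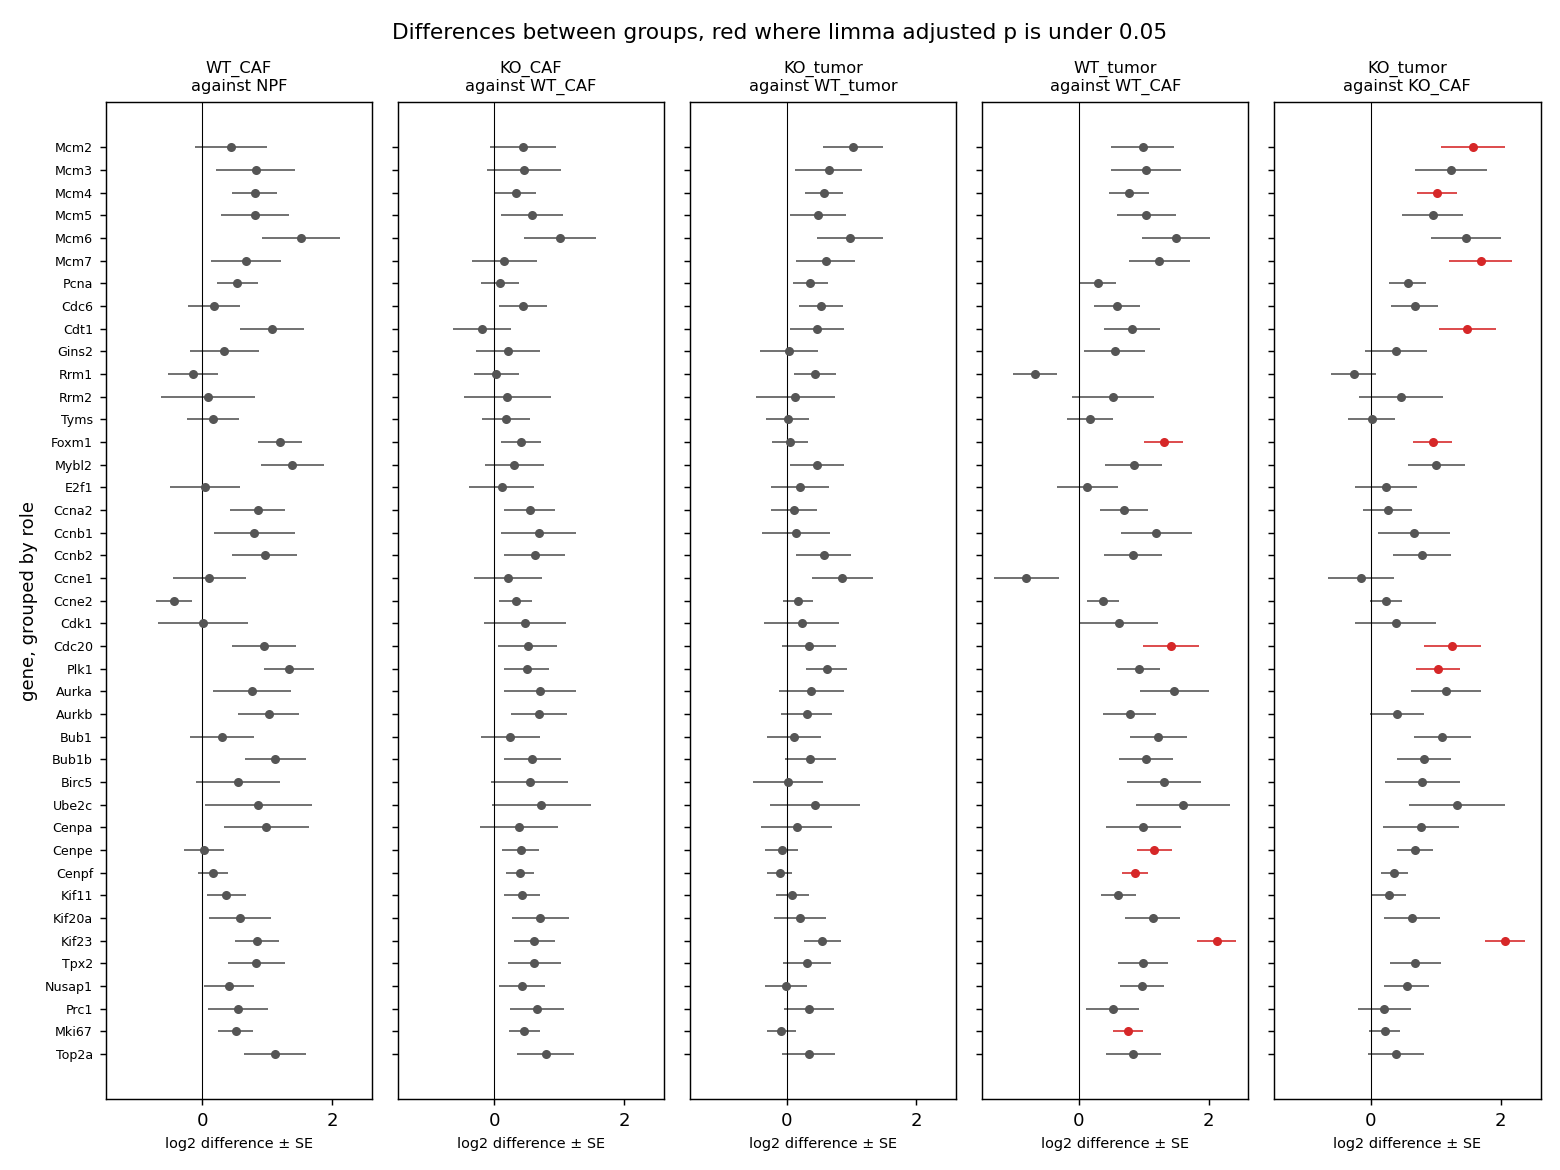
Log2 difference ± standard error (x axis) of the 41 tested genes (y axis, grouped by role) in 5 comparisons, with genes at limma adjusted p under 0.05 in red. No gene is red in the first 3 comparisons, 6 are red in WT_tumor against WT_CAF and 8 in KO_tumor against KO_CAF, with Kif23 farthest to the right in both.

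WT_CAF was compared with NPF to see whether tumor-associated fibroblasts differ from normal ones. Only WT_CAF 1 and 2 lack an index in the label as NPF does, and these were fitted as 1 format. With the format term the sizes therefore rest on these 5 libraries, and without WT_CAF 1 on WT_CAF 2 alone against NPF. No gene of the list was called in either direction by limma (smallest adjusted p 0.11, with 10 of 41 genes, 24.4%, at an unadjusted p under 0.05 against 16.9% of all genes), against a background of 0.277% of all genes called higher and 0.673% lower. With no format term 33 of 41 differences were above 0 (median 0.24, against -0.01 over all genes), and again 0 were called. With the format term 39 of 41 were above 0 (median 0.67, against -0.01 over all genes). The largest were those of Mcm6 (1.52 ± 0.60, adjusted p = 0.23), Mybl2 (1.39 ± 0.49, 0.19) and Plk1 (1.33 ± 0.38, 0.11), and the lowest those of Ccne2 (-0.43 ± 0.28, 0.45), Rrm1 (-0.14 ± 0.38, 0.89) and Cdk1 (0.01 ± 0.69, 1). Without WT_CAF 1, 30 of 41 were above 0 and the median was 0.32, again with 0 called (2 at an unadjusted p under 0.05, 4.88% against 13.7% of all genes). Mcm6 was then at 0.81 ± 0.71 and Plk1 at 0.91 ± 0.45 (adjusted p = 0.41). Without WT_CAF 2, which leaves WT_CAF 1 as the only WT_CAF library of this format, 4 genes were called higher (Bub1b, Foxm1, Mcm7 and Plk1). The count over all genes moved as well, from 5 to 598 higher and 15 to 732 lower over the 18 fits that left out 1 library. In the NPF libraries the mean of the list (2.90, 2.46 and 1.97) ran opposite to the summed acinar markers (764, 4154 and 28836 FPKM), and the part of these markers in the result was not tested.

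The effect of the Saa3 deletion was compared in fibroblasts and in tumor cells. In KO_CAF against WT_CAF, 0 of 41 genes were called by limma (background 0.00748% of all genes). None had an unadjusted p under 0.05 (0.935% of all genes), although 40 differences were above 0 (median 0.44). The largest were those of Mcm6 (1.02 ± 0.55), Top2a (0.79 ± 0.44) and Ube2c (0.72 ± 0.76), and the lowest those of Cdt1 (-0.19 ± 0.45), Rrm1 (0.03 ± 0.35) and Pcna (0.09 ± 0.29), all at an adjusted p of 1. Leaving out WT_CAF 1 did not move these sizes. Within the 6-base format, however, 15 of 41 genes were above 0 (median -0.05, 2 libraries against 1), within the 16-base format 38 (median 0.64, 1 against 2), and with no format term 22 (median 0.05). With neither WT_CAF 1 nor the format term 34 were above 0 (median 0.23). The direction of the list in this comparison was thus not the same across formats.

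In KO_tumor against WT_tumor, 0 of 41 genes were called by limma (background 0% of all genes). Only Mcm2 had an unadjusted p under 0.05 (2.44% of the 41, against 3.95% of all genes). The differences of 37 were above 0 (median 0.34, against -0.02 over all genes), the largest being those of Mcm2 (1.02 ± 0.46), Mcm6 (0.98 ± 0.50) and Ccne1 (0.86 ± 0.47) and the lowest those of Cenpf (-0.11 ± 0.19), Mki67 (-0.08 ± 0.22) and Cenpe (-0.08 ± 0.26), all at an adjusted p of 1. Mcm2 differed by 1.40 within the 6-base format and by -0.06 between KO_tumor 2 and WT_tumor 1. Over the list the medians within these formats were 0.35 (34 of 41 above 0) and -0.003 (19 of 41). Acinar markers differed widely within both groups, as given above, and their part was not tested. The interaction, that is the knockout difference in tumor cells minus that in fibroblasts, was called for 0 of 41 genes (background 0%). None of them had an unadjusted p under 0.05 (1.38% of all genes). Its median was -0.17 with 12 genes above 0, and 0.31 with 36 above 0 when the format term was left out. Leaving out 1 library at a time moved the median from -0.67 to 0.21. The largest value was that of Cdt1 (0.66 ± 0.61) and the lowest that of Mki67 (-0.55 ± 0.33).

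Because the tumor cell libraries with a 16-base index stood apart, the format term itself was examined, a contrast added after the values were seen. Between 16-base and 6-base libraries within groups, Rrm2 was higher by 1.60 ± 0.48 (limma adjusted p = 0.031) and Mcm4 by 0.72 ± 0.23 (0.042), and Mki67 differed by -1.12 ± 0.18 (4.6e-04). These were 2 of 41 genes called higher (background 6.66%) and 1 called lower (background 11.2%). The differences of 37 were above 0 (median 0.42, against 0.03 over all genes), and the mitotic kinase and anaphase group had the highest median, 0.80. Leaving out 1 library at a time gave 0 to 8 genes called higher, with 422 to 1105 over all genes. Mki67 was called lower in every such fit (-1.22 to -1.02). The format term is 1 value for all groups, but the mean of the list did not move alike in them. In tumor cells it was 3.92 and 3.98 in the 16-base libraries and 2.54 to 3.54 in the 6-base ones. In WT_CAF it was 2.05 and 2.54 against 2.74, and in KO_CAF 2.86 against 2.82 and 2.5. With no format term the median difference of the list in WT_tumor against WT_CAF was 0.43 instead of 0.86. Mki67 has one of the longest transcripts of the list (10061 bases in GENCODE). Over the 41 genes the format difference correlated with log10 transcript length at Pearson r = -0.39 (Spearman rho -0.34), and at r = -0.23 without Mki67, as a description across genes that share the same 18 libraries. Cenpf and Cenpe, which are also long, stood near 0. The 6-base libraries ran in lanes 1 and 2 and the 16-base libraries in lanes 6 and 7, per the labels, so format and lane cannot be told apart.

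**Figure D4:**
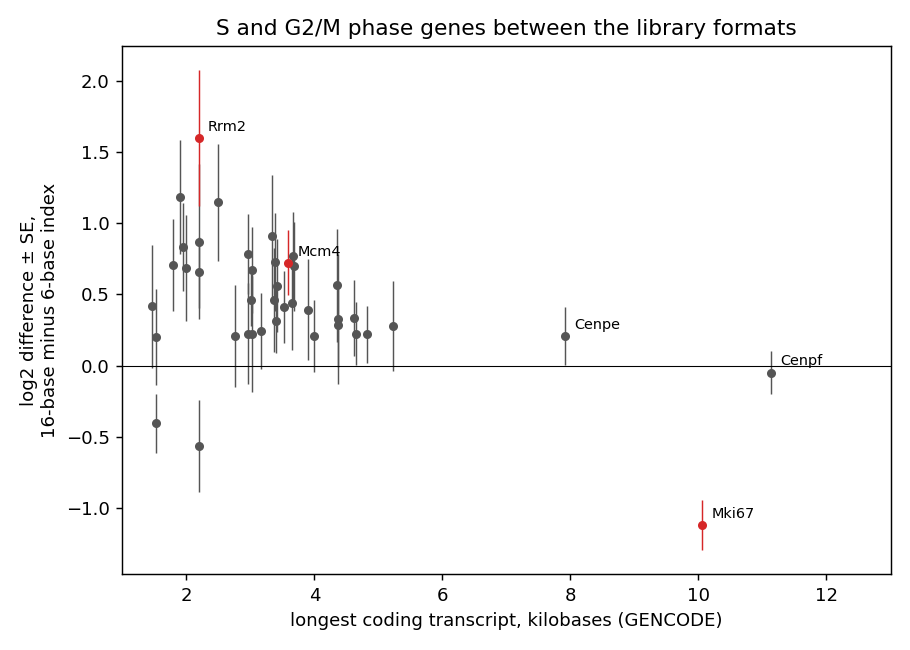
Log2 difference ± standard error between libraries with a 16-base and a 6-base index (y axis) against the length of the longest coding transcript in kilobases (x axis) for the 41 tested genes, with genes at limma adjusted p under 0.05 in red. Most genes lie above 0 (37 of 41), Mki67 lies at -1.12, and the long genes Cenpe and Cenpf lie near 0.

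The genes varied together between libraries. The correlation of each gene's log2(FPKM + 1) with the mean of the other genes had a median of 0.75 over the 10 fibroblast libraries without WT_CAF 1 (range -0.04 to 0.92) and of 0.91 over the 7 tumor cell libraries (range -0.93 to 0.99). These are descriptions over libraries that share formats and groups, with no test. The genes that followed the list most closely were Ube2c, Top2a and Kif11 in fibroblasts and Bub1b, Tpx2 and Aurkb in tumor cells. E2f1 (-0.04), Rrm2 (0.04) and Mcm4 (0.26) did not follow it in fibroblasts, and Mki67 (-0.93), Pcna (0.15) and Kif23 (0.38) did not in tumor cells. Mki67 correlated at 0.58 in fibroblasts. Replication and mitotic genes were not in fixed proportion: KO_tumor 1 and 3 had replication licensing means of 4.48 and 3.82 against mitotic kinase means of 3.78 and 2.94, while KO_tumor 2 had 4.36 against 4.84 and WT_tumor 1 had 4.52 against 4.68.

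**Figure D5:**
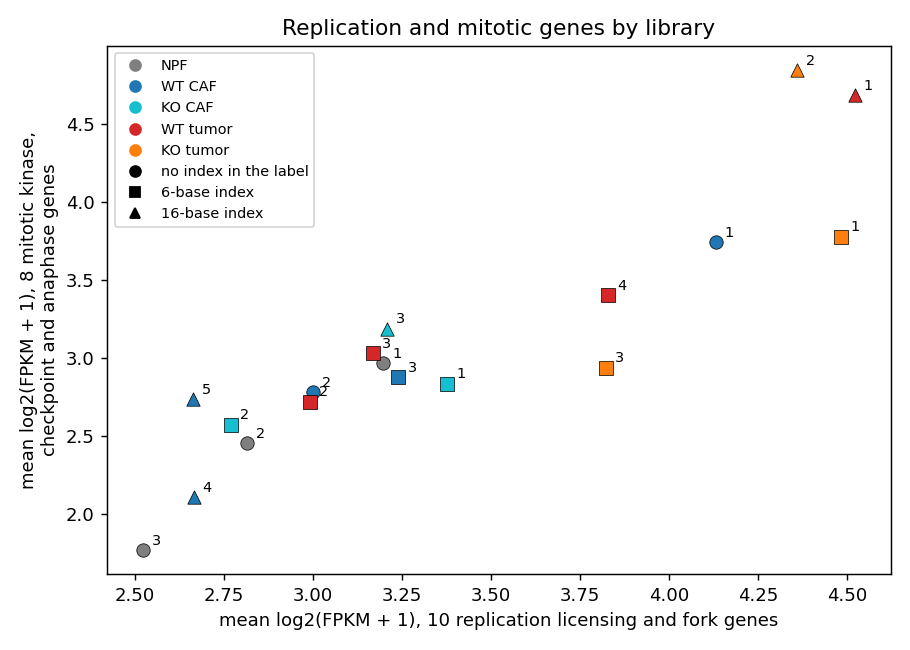
Mean log2(FPKM + 1) of 8 mitotic kinase, checkpoint and anaphase genes (y axis) against that of 10 replication licensing and fork genes (x axis), with 1 point per library, colored by group, shaped by library format and numbered by replicate. Tumor cell libraries with a 16-base index are at the top right, and KO tumor 3, with a replication mean of 3.82, has a mitotic mean of 2.94, within the fibroblast range.

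Outside the list, the tested genes whose levels followed its mean most closely, by the average of the Pearson correlation over 10 fibroblast libraries and that over 7 tumor cell libraries, were Hmmr (0.92 and 0.96), Fam64a (0.92 and 0.95), Ncaph (0.90 and 0.94), Racgap1 (0.87 and 0.96) and Dlgap5 (0.91 and 0.90). Hmmr ranged from 1.37 to 4.56 FPKM in fibroblasts and 2.24 to 6.39 in tumor cells, and Fam64a from 1.93 to 16.8 and 2.34 to 23.2. The highest fibroblast value of Fam64a was that of WT_CAF 1 (6.06 FPKM without it). Both ranges overlapped, and for both genes WT_tumor 1 and KO_tumor 2 were the highest libraries.

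Further cell cycle genes were read in the same way. Of 32 other S phase genes, 6 (18.8%) were called higher in WT_tumor than in WT_CAF by limma, against 9.05% of all genes, led by Brca1 (0.76 ± 0.20, adjusted p = 0.017), Pola2, a primase-polymerase subunit (0.94 ± 0.26, 0.019), Mcm10 (1.16 ± 0.36, 0.033), Rfc4 (1.38 ± 0.44, 0.037) and Fen1 (1.19 ± 0.40, 0.049). In KO_tumor against KO_CAF 11 (34.4%) were called higher, against 13% of all genes, led by Pola2 (0.97 ± 0.26, adjusted p = 0.014), Rfc5 (0.96 ± 0.26, 0.016), Rfc3 (1.74 ± 0.48, 0.017), Gins1 (1.59 ± 0.45, 0.018) and Brca1 (0.73 ± 0.21, 0.019). None of the 32 was called lower. Brca1, Mcm10, Orc1 and Pole passed the filter through the tumor cells: of the fibroblasts only WT_CAF 1 reached 1 FPKM for Brca1, and only WT_CAF 1 and KO_CAF 1 did for Mcm10. Without these 4 genes, 4 of 28 (14.3%) and 8 of 28 (28.6%) were called. Of 41 other G2 and M genes, 9 (22%) were called higher in the WT comparison and 5 (12.2%) in the knockout comparison, the latter share lying under the 13% of all genes, and none lower. Ect2, the exchange factor that acts with Kif23 and Racgap1 in cytokinesis, rose in both, by 1.93 ± 0.39 (adjusted p = 0.004) and 1.55 ± 0.39 (0.011). Next in the WT comparison were Nek2 (1.39 ± 0.38, 0.019), Ncapg (1.26 ± 0.37, 0.028), Cdc25c (1.05 ± 0.31, 0.03) and Melk (1.13 ± 0.34, 0.03). In the knockout comparison the others were Lmnb1 (1.45 ± 0.33, 0.0064), Cdca5 (1.28 ± 0.39, 0.026), Ncaph (1.14 ± 0.37, 0.032) and Hmgb2 (0.98 ± 0.33, 0.038). With no format term 2 other S phase (6.25%) and 2 other G2 and M genes (4.88%) were called higher in the WT comparison, under the 9.27% of all genes. In the knockout comparison 5 (15.6%) and 4 (9.76%) were, against 9.72% of all genes. With the format term but without WT_CAF 1 the counts were 10 (31.2%) and 15 (36.6%) in the WT comparison (background 11.6%). They were 15 (46.9%) and 7 (17.1%) in the knockout comparison (background 15.4%). Both S phase counts again hold Brca1 and Mcm10, and that of the knockout comparison also holds Pole. These genes passed the filter through the tumor cells, and the shares without WT_CAF 1 were not recomputed without them.

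Of 12 cell cycle inhibitors and pocket proteins, Cdkn2c (p18) fell in tumor cells against fibroblasts, with a difference of -1.86 ± 0.35 (limma adjusted p = 0.0027) with intact Saa3 and of -2.42 ± 0.36 (5.5e-04) without it. Cdkn2b (p15) rose in the same comparisons by 2.13 ± 0.58 (0.019) and 2.75 ± 0.59 (0.0045), the first call being lost without WT_CAF 4 or WT_tumor 1. These were 1 of 12 called lower in each comparison, against 12.5% and 15.4% of all genes, and 1 and, with Cdkn2a, 2 called higher, against 9.05% and 13%. Cdkn2a, which encodes p16 and p19Arf, was at 42, 2.70 and 1.10 FPKM in KO_CAF and 924, 8.55 and 263 in KO_tumor, so the groups overlapped. It was called higher in KO_tumor by 4.26 ± 1.13 (0.013), but not without KO_CAF 2 or KO_tumor 1, nor with no format term (adjusted p = 0.15). Its differences within the 6-base and 16-base formats were 5.29 and 2.18, and between 16-base and 6-base libraries it differed by -4.35 ± 0.84 (limma adjusted p = 0.0023). Without WT_CAF 1 further inhibitors were called. Cdkn1c (p57) was then lower in WT_tumor than in WT_CAF (limma adjusted p = 0.0047, against 0.055 with it) and in KO_tumor than in KO_CAF (0.0046, against 0.0503), and Cdkn2a was higher in WT_tumor (0.02, against 0.06). Cdkn1a (p21) was called lower in WT_CAF than in NPF with no format term (0.015, against -2.40 ± 0.59 and 0.071 with it). With all libraries and the format term, no gene of these 3 further lists was called in WT_CAF against NPF, in either knockout comparison, or in the interaction. Without WT_CAF 2, which leaves WT_CAF 1 as the only WT_CAF library in the format of NPF, 6 other S phase genes, 3 other G2 and M genes (Cdc25b, Espl1 and Lmnb1) and the inhibitors and pocket proteins Cdkn2b and Rbl1 (p107) were called higher in WT_CAF than in NPF and Cdkn1a and Cdkn1c lower, and without WT_tumor 2 Cdc25b was called higher. Over all genes, the fits that left out 1 library called 5 to 598 higher and 15 to 732 lower in this comparison. At an unadjusted p under 0.05 WT_CAF against NPF held 7 of the other S phase genes (21.9%), 11 of the other G2 and M genes (26.8%) and 4 of the inhibitors (33.3%), against 16.9% of all genes. KO_CAF against WT_CAF held 1 other G2 and M gene, KO_tumor against WT_tumor 1 other G2 and M gene and 1 inhibitor, and the interaction none (0.935%, 3.95% and 1.38% of all genes).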

How the data were processed

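Poly(A) RNA of 18 libraries was sequenced on HiSeq2000 with the Illumina TruSeq RNA kit, per the labels' protocols. The submitters' processing notes name Cuffnorm and Cufflinks 2.2.1 and, with no role stated, Bowtie 1.0.0 and TopHat2 2.0.10, also SAMtools 0.1.19, and the builds mm9 and GRCh37/hg19. The authors deposited FPKM values for 23951 genes, which are not counts, so the depth is unknown. The sources used here do not give the annotation or strand use. Differences were tested on log2(FPKM + 1) with limma 3.58.1 (R 4.3.3, empirical Bayes with trend, two-sided) in 1 fit of group plus library format with 11 residual degrees of freedom. The fit covered 13369 genes that reached 1 FPKM in 3 libraries or more, with Benjamini-Hochberg adjustment and calls at an adjusted p under 0.05. Fold changes on this scale understate those of low genes. The genes, lists and comparisons were chosen with earlier results of these data known. Genes given library by library were a listed set of 20, the called genes (up to 10), the 3 largest differences in each direction and, of the further lists, up to 5 called genes. Others given that way were chosen after their values were seen. Alternatives were no format term, leaving out each library, a pseudocount of 0.1, no filter, and rescaling by median ratio or sum. Promoters are from RefSeq (GRCm38.p6) and exons from GENCODE M21, and no deposited coordinate was used.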

Additional observations from a re-analysis of the deposited data

Results flagged for a closer look

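Of 86 tests, of the 42 genes and their mean in WT_CAF and in WT_tumor, 7 had 1 library far from the others, by the gap to its nearest neighbor divided by the range of the group on the log2(FPKM + 1) scale, being above Dixon's critical value, and chance flags about 1 in 20. In WT_CAF, WT_CAF 1 was high for Aurka (gap ratio 0.781, 14.4 FPKM), Mcm6 (0.755, 21.2 FPKM) and Mcm7 (0.744, 32.2 FPKM). WT_CAF 4 was low for Kif11 (0.857, 0.93 FPKM), Prc1 (0.805, 4.51 FPKM) and Cenpf (0.762, 0.229 FPKM). In WT_tumor, WT_tumor 2 was low for Cenpf (0.867, 1.1 FPKM). WT_CAF 1 is the library with the low fibroblast marker sum.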

How the results depend on the processing

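In WT_tumor against WT_CAF the 6 genes called became 3 with no format term, 10 with libraries scaled to equal sums and 12 without WT_CAF 1, and ranged from 3 to 12 when 1 library was left out at a time. In KO_tumor against KO_CAF the 8 genes called became 4 with no format term and 4 with equal sums, and ranged from 1 to 9 when 1 library was left out. In WT_CAF against NPF the count of 0 became 4 without WT_CAF 2. Over all genes, the numbers called higher with 1 library left out ranged from 440 to 1551, 891 to 2057 and 5 to 598 in these comparisons. Scaling to equal sums moved the median of all genes to 0.24, 0.11 and 0.21 in these comparisons, and the median of the cell cycle genes to 1.20, 0.86 and 0.99. The single differences tracked were those of called genes, the 3 highest of each comparison, and Mki67 and Top2a. Most differences near 0 were thus left out. Of those tracked, 1 changed sign: Mki67 in KO_tumor against WT_tumor, from -0.08 to 0.055 without KO_tumor 1. Its range was -0.22 to 0.055 over the libraries left out. Over the whole list signs did move with no format term. The genes above 0 went from 40 to 22 of 41 in KO_CAF against WT_CAF and from 12 to 36 in the interaction. Of the tracked values under alternatives, 718 kept their side of the threshold, 65 lost a call and 8 gained one. No paired analysis was possible because the labels give no replicate numbers and no animal. The cause of these changes was not tested. Depth is unknown, and no interval from counts could be given.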
